A study of Mus musculus with 38 samples.

Results

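The splicing machinery of cells collected as dentate gyrus granule cells was examined through 48 genes, taken from the 23420 genes counted in every library because their symbols name them as heterogeneous nuclear ribonucleoproteins (hnRNPs, 18 genes), serine/arginine-rich splicing factors (SR proteins, 11 genes), core proteins of the small nuclear ribonucleoproteins (snRNPs, 11 *Snrp* genes) or subunits of splicing factor 3 (SF3, 8 genes). Membership was set by symbol and not by a measured value, but the families were picked with earlier results of these data known. RNA had been sequenced from male *Arc*::dVenus mice on the C57BL/6J background, aged 8 to 12 weeks and housed singly, which carry a short-lived fluorescent reporter under the *Arc* promoter so that recently active neurons are dVenus+. Fear conditioned mice (FC, 12 mice) had received tones paired with foot shocks, no-shock mice (NS, 4 mice) had gone through the same session without shocks, and home-cage mice (HC, 3 mice) had not been placed in the chamber. Cells were collected 24 h after training in FC and NS mice, and each mouse gave 1 library of 10 aspirated dVenus+ cells and 1 library of 10 neighboring dVenus- cells, or 38 libraries in all. The promoter marks cells by *Arc* activity, so HC mice also have dVenus+ cells, and the content of 10 cells was pooled before sequencing. The question followed here is whether these genes differed between dVenus+ and dVenus- cells of the same mouse, and whether that difference varied with training.

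Introns are removed by the spliceosome, which is assembled on each intron from the U1, U2, U4/U6 and U5 snRNPs. The *Snrp* genes encode the Sm proteins that form the ring around these small RNAs, together with proteins particular to U1 or U2, and the SF3A and SF3B subunits belong to the U2 snRNP, where they help to recognise the branch point. SR proteins bind exonic sequences and generally favor the inclusion of an exon, whereas many hnRNPs bind nascent RNA and often favor skipping, so that exon choice is commonly described as a balance between both families. In neurons this balance is known to shape receptors, channels and synaptic adhesion proteins, and several hnRNPs also travel with mRNA into dendrites.

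Between 1352288 and 18394761 reads per library were counted on genes (median 8013005), and 39 to 48 of the 48 genes had at least 1 count in a library. In 10 of the 14 NS and HC libraries (6 NS and 4 HC) the description label names another sample of the same training group than the title and the other labels do. Titles were followed here, so each NS and HC value by dVenus and by mouse rests on the titles. By titles, *Arc* was higher in the dVenus+ library in 12 of 12 FC, 4 of 4 NS and 3 of 3 HC mice. The summed level of 9 granule cell markers was lower in dVenus+ than in dVenus- cells of every mouse, at 154 to 1188 against 783 to 2510 normalized CPM (counts relative to the effective library size) in FC, 319 to 565 against 1080 to 2449 in NS and 266 to 1064 against 1135 to 2520 in HC mice, with 1 marker, *Tdo2*, at 0 in all NS dVenus+ and all HC dVenus- libraries. The sum of 11 microglia markers was higher in dVenus+ cells in 12 of 12 FC, 4 of 4 NS and 2 of 3 HC mice, at 32.8 to 1773 against 1.02 to 532 in FC, 110 to 1579 against 7.11 to 529 in NS and 320 to 1110 against 1.92 to 526 in HC mice, with *Aif1* at 0 in HC dVenus- libraries. Sums of the other marker lists were higher in dVenus+ cells in 3 of 12 FC, 2 of 4 NS and 3 of 3 HC mice for astrocytes, 5, 2 and 1 for oligodendrocytes, 7, 3 and 3 for their precursors, 4, 1 and 2 for interneurons and 2, 3 and 2 for endothelium. Astrocyte sums were 45.5 to 1699 in FC, 1020 to 3475 in NS and 1618 to 1834 in HC dVenus+ libraries. In dVenus- libraries they were 157 to 2985, 528 to 3654 and 578 to 865. Oligodendrocyte sums were 138 to 3166, 1153 to 2277 and 869 to 2107 in dVenus+ and 193 to 4627, 110 to 3632 and 219 to 2866 in dVenus- libraries. The NS and HC dVenus+ astrocyte sums thus lay above the granule cell sums of the same groups. The part of these marker differences in the results below was not tested.

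The genes covered a wide range of levels, set by a few abundant hnRNPs. Divided by transcript length, *Hnrnpa2b1*, which binds nascent and dendritically transported RNA, was the highest, with a median of 326 normalized CPM per kilobase over the 38 libraries (lowest 186, highest 1012). *Hnrnpk* (median 114), a poly(C)-binding hnRNP, came next and was followed by *Hnrnpc* (median 91.3), a nuclear hnRNP of nascent transcripts. The ranges of the middle 50% of libraries overlapped between *Hnrnpk*, *Hnrnpc*, *Hnrnph1* (90.1) and *Snrpb* (86.0), so that the order after *Hnrnpa2b1* is within the spread between libraries.

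In the other families, the highest levels per kilobase were those of *Snrpb* (86.0), *Snrpe* (72.0) and *Snrpd1* (65.3) among the snRNP proteins, all part of the Sm ring. They were those of *Srsf2* (76.9), *Srsf5* (74.9) and *Srsf7* (63.5) among the SR proteins. *Sf3b2* (51.5), *Sf3b1* (40.1), the subunit that contacts the branch region, and *Sf3a3* (22.3) led the SF3 subunits. The median of these per-kilobase medians was 32.1 for snRNP proteins, 26.6 for SR proteins, 20.4 for hnRNPs and 12.1 for SF3 subunits.

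**Figure D1:**
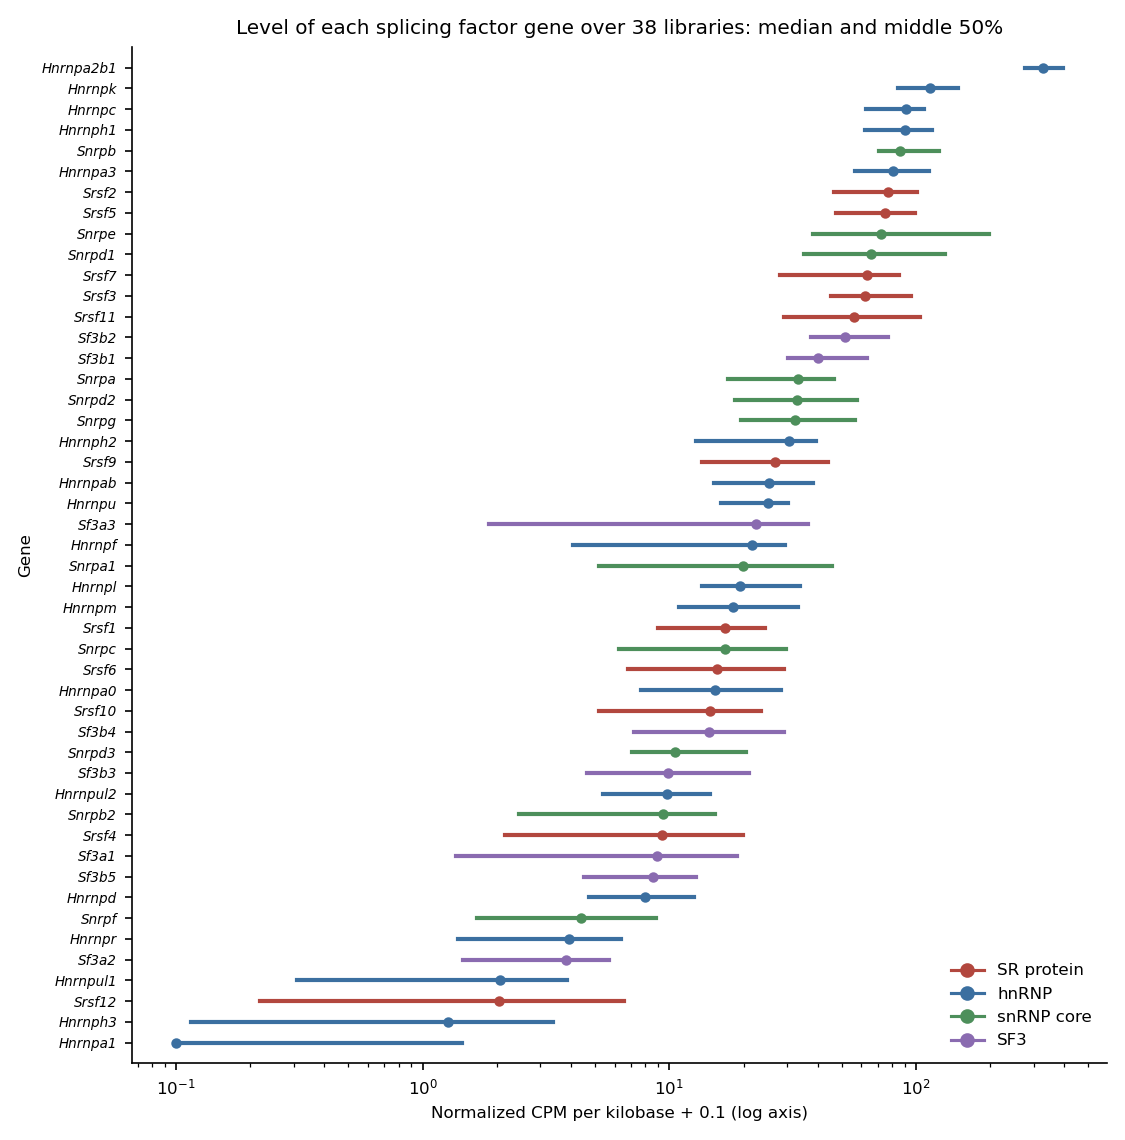
Level of each of the 48 genes over the 38 libraries as normalized CPM per kilobase of transcript plus 0.1 on a log axis, where the point is the median, the bar spans the middle 50% of libraries and the color gives the family. *Hnrnpa2b1* lies apart at 326, and *Hnrnpa1* lies at 0.

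Counts were enough to follow most but not all of the genes in pools of 10 cells. At least 10 counts were found in all 38 libraries for 15 genes, and at least 1 count for 25 genes, while 23 genes were at 0 in at least 1 library. *Hnrnpa1*, which codes for a widely studied antagonist of SR proteins, was at 0 in 20 libraries and reached at most 131 counts, and it was the only gene below the count filter in FC, NS and HC mice. Of its 50-base windows, the length of a read, 46.4% also occur in transcripts of 19 other genes, and only uniquely aligned reads had been counted, so its values are uncertain. Values may be uncertain as well for *Hnrnpa3* (91% of windows shared), *Snrpf* (89.5%), *Hnrnpf* (67.3%), *Srsf4* (65.4%), *Sf3b4* (51.2%) and *Hnrnpk* (40.6%). Windows were compared between transcripts and not between genome positions, so genes that overlap at the same locus also count as sharing them. Which kind of sharing applies to each gene was not tested. Levels per kilobase rest on the longest principal transcript, which is 21452 bases for *Hnrnpr* and may be longer than what these cells make.

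In FC mice, no gene of the 4 families passed the test between dVenus+ and dVenus- cells. Of 47 genes tested with edgeR, 0 had an adjusted p under 0.05 with an absolute log2 fold change over 1, beside 1.41% of all 9709 genes tested. An unadjusted p under 0.05 was reached by 3 genes (beside 12.8% of all genes), which were *Snrpa1*, *Srsf11* (both higher in dVenus+ cells) and *Srsf9* (lower). DESeq2 called 2 genes, *Snrpa1* and *Srsf9*, beside 16.8% of all genes, and the newer quasi-likelihood method of edgeR called *Snrpa1* alone, beside 4.35%, while a fit without the mouse as block called 0, beside 1.3%. Fold changes were above 0 on the log2 scale for 20 and below 0 for 27 genes, with a median of -0.14 beside -0.21 over all genes. The median standard error of the fold changes was 0.64 for the 47 genes, beside 1.02 over all genes tested. In bulk pools, fewer cells of a kind and less RNA per cell cannot be told apart.

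**Figure D2:**
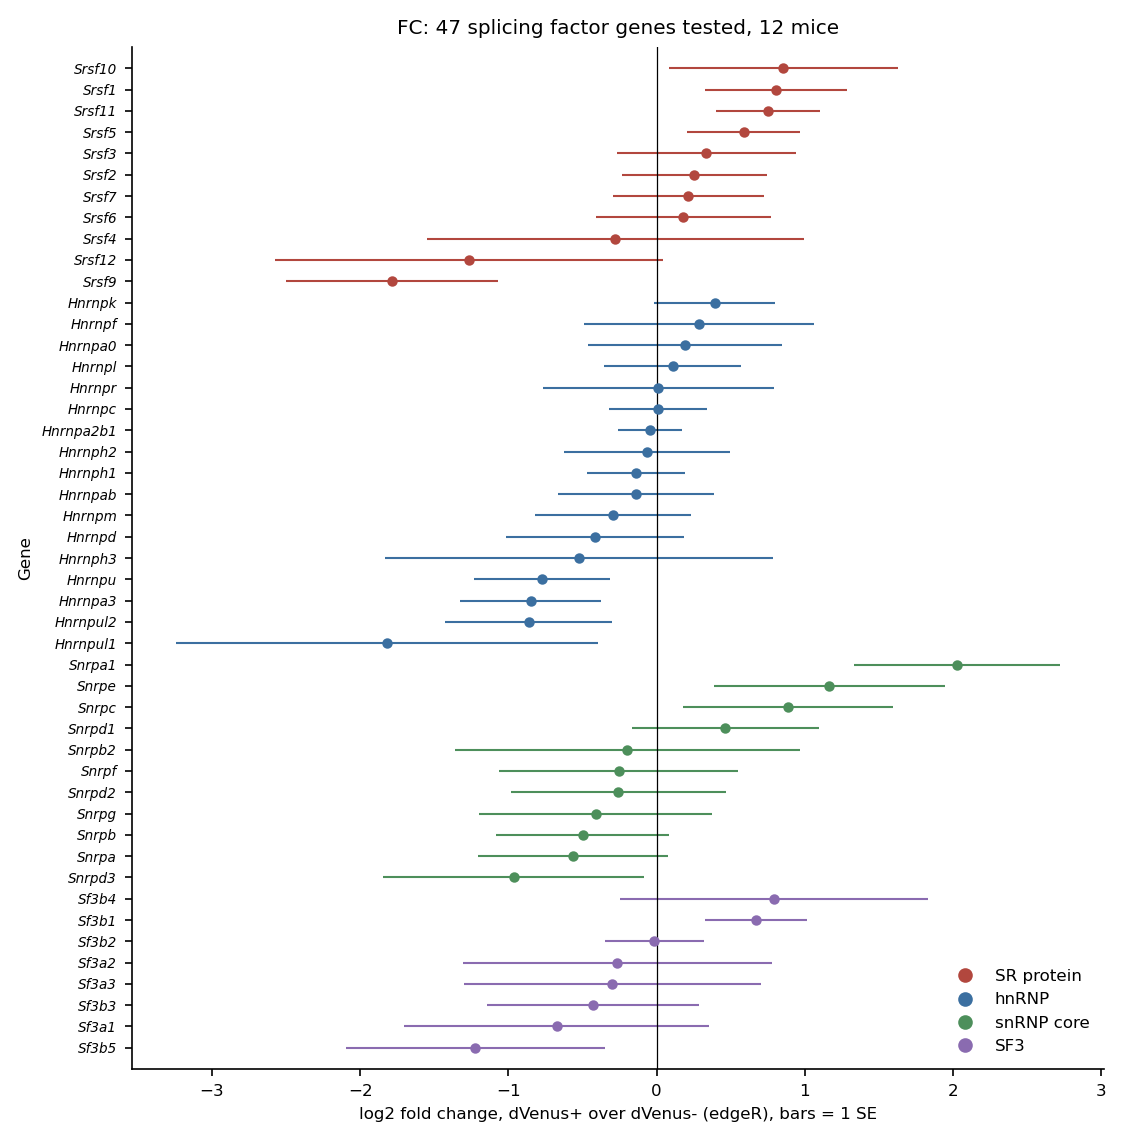
log2 fold change of dVenus+ over dVenus- cells in 12 FC mice for the 47 genes tested, with bars of 1 standard error derived from the edgeR test and colors for the families. Most bars cross or come near 0, 8 of 11 SR protein genes lie above 0, and *Snrpa1* has the highest value, at 2.03.

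*Snrpa1* had the largest difference of the snRNP genes, and of all 47. It encodes the U2 A' protein of the U2 snRNP, and the gene lies at chr7:66059003-66074587 on the plus strand of GRCm38. Its normalized CPM was 6.16 at the lowest, 71.8 at the median and 169 at the highest in dVenus+ libraries, against 0.637, 19.5 and 32.9 in dVenus- libraries. The dVenus+ library was the higher in 11 of 12 mice and the lower in mouse 5, and 9 dVenus+ libraries exceeded every dVenus- library but 3 did not. The log2 fold change was 2.03 ± 0.70 (SE), with an unadjusted p of 0.0087 and an adjusted p of 0.172 in edgeR. Over the 21 alternatives the log2 fold change ranged from 1.29 to 2.38 and the adjusted p from 0.000679 to 0.922, and it was under 0.05 with DESeq2 and with the newer method of edgeR (0.0464).

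Of the other snRNP genes, *Snrpe*, coding for an Sm ring protein, was the next, at 1.23, 36.2 and 205 normalized CPM (lowest, median, highest) in dVenus+ and 0.319, 24.1 and 55.1 in dVenus- libraries. It was higher in dVenus+ cells in 10 of 12 mice, but the ranges overlapped, and its log2 fold change was 1.16 ± 0.78. *Snrpc*, coding for a U1 protein that helps to recognise the 5' splice site, was higher in 9 of 12 mice (0.89 ± 0.71). The Sm gene *Snrpd3* (-0.97 ± 0.88) and the U1 gene *Snrpa* (-0.56 ± 0.64) lay on the other side of 0. In all, 4 of 11 snRNP genes had a log2 fold change above 0, with a median of -0.26, so that *Snrpa1* stood at one end of a family without a shared direction.

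The promoter windows of the families were searched for letters bound by known factors, since the study concerns transcription in active neurons and the cAMP response element (CRE) is the site bound by CREB. RefSeq windows on GRCm38.p6 from 250 bases before to 50 bases after the start were matched for 43 of the 48 genes. *Sf3b4*, *Sf3b5*, *Hnrnpul2*, *Snrpd1* and *Snrpb* were not matched. The full CRE, TGACGTCA, stood in 2 windows (*Snrpa* and *Snrpg*, 4.65% of the 43, beside 2.03% of 27025 genes), and its core, TGACG, in 23 windows on either strand, full sites included (53.5% beside 23%). ETS letters CCGGAAG stood in 15 windows (34.9% beside 9.93%), SP letters GGGCGG in 31 (72.1% beside 38.2%), CCAAT in 22 (51.2% beside 41.1%) and TATAAA in 6 (14% beside 15.7%). The E-box CACGTG stood in 6 windows (14% beside 8.09%), the NRF1 motif in 1 (2.33% beside 1.07%), the YY1 motif in 1 (2.33% beside 0.755%) and the GFY motif in 0 (beside 0.311%). The motifs were chosen after matches had been seen, and the shares are descriptions. Here 3 windows are shown 5' to 3' because they hold the full CRE, or because *Snrpa1* had the largest fold change, with the CRE or its core in capitals. They lie at chr7:27196222-27196521 on the minus strand (*Snrpa*, with the CRE from base -113), at chr6:86371290-86371589 on the plus strand (*Snrpg*, from base -49) and at chr7:66060086-66060385 on the plus strand (*Snrpa1*, core from base 6 after the RefSeq start). The whole *Snrpa1* window lies past the GENCODE start of the gene (66059003), so RefSeq and GENCODE place its start differently.
Snrpa: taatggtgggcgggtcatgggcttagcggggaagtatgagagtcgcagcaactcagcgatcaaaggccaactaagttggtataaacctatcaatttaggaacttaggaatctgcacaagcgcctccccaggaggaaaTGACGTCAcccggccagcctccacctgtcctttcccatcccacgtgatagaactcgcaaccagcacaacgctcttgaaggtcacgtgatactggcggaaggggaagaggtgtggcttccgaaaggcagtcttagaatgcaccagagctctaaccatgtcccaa
Snrpg: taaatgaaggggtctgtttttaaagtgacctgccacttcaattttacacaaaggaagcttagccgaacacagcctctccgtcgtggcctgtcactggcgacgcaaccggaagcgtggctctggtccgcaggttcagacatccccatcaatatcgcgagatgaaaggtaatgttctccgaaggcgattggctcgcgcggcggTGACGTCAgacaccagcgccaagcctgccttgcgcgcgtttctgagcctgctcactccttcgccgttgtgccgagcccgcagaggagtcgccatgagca
Snrpa1: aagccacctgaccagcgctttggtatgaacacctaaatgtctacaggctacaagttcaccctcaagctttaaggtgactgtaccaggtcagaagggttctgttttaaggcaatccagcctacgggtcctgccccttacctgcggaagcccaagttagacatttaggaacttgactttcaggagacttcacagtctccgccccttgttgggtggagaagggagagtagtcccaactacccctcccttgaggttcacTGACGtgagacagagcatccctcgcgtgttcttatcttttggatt
The 2 genes with a full CRE had FC log2 fold changes of -0.56 ± 0.64 (*Snrpa*) and -0.41 ± 0.79 (*Snrpg*), neither past the test.

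In FC mice no SR protein gene was called, and fold changes lay above 0 for 8 of 11 genes, with a median of 0.25 on the log2 scale. With the size factors of DESeq2 the count was again 8 of 11, whereas the mean within-mouse log2 ratio of the summed SR protein level was 0.44 with TMM factors and -0.00093 without them. Of the 11 genes, 2 had an unadjusted p under 0.05, in opposite directions. *Srsf11*, coding for a regulatory SR-related protein, was at 153, 238 and 440 normalized CPM (lowest, median, highest) in dVenus+ and 47.6, 113 and 483 in dVenus- libraries. It was higher in dVenus+ cells in 10 of 12 mice, all but mice 3 and 9, and the ranges overlapped, with no dVenus+ library above the highest dVenus- library. Its log2 fold change was 0.75 ± 0.35 with an unadjusted p of 0.045 and an adjusted p of 0.374 in edgeR, and from 0.37 to 1.67 over the alternatives.

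*Srsf9* had lower values in dVenus+ cells. It encodes a small SR protein, at chr5:115327177-115333080 on the plus strand of GRCm38, and no 50-base window of its transcript is shared with another gene. Its dVenus+ libraries were at 0.616, 18.9 and 71.5 normalized CPM and its dVenus- libraries at 14.8, 48.8 and 131. The dVenus+ library was the lower in 10 of 12 mice, all but mice 1 and 11, with 4 dVenus+ libraries below every dVenus- library and the others within their range. The log2 fold change was -1.78 ± 0.72, with an unadjusted p of 0.022 and an adjusted p of 0.262 in edgeR, and it ranged from -2.97 to -1.33 over the alternatives.

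Of the remaining SR protein genes, *Srsf1*, the best studied activator of exon inclusion, had a median of 98.1 in dVenus+ and 56.9 in dVenus- libraries, was higher in 10 of 12 mice and had a log2 fold change of 0.81 ± 0.48. *Srsf10* (0.85 ± 0.77) and *Srsf5* (0.59 ± 0.38) were each higher in 9 of 12 mice. *Srsf12*, which was at 0 in 8 of the 38 libraries, had -1.26 ± 1.31. The ranges of dVenus+ and dVenus- libraries overlapped for each of these genes.

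The hnRNP genes had fold changes on both sides of 0 in FC mice. On the log2 scale 11 of 17 genes lay below 0, with a median of -0.14, and 0 of 17 had an unadjusted p under 0.05. *Hnrnpa2b1* was at 325, 538 and 754 normalized CPM in dVenus+ and 395, 502 and 735 in dVenus- libraries, higher in 6 of 12 mice, and its log2 fold change of -0.05 ± 0.22 had the smallest error of all 47 genes. *Hnrnpk* had medians of 306 and 268 (0.39 ± 0.41) and *Hnrnpc* of 199 and 228 (0.01 ± 0.33). The largest differences were those of *Hnrnpul1* (-1.82 ± 1.43), which was under 10 counts in 6 dVenus+ libraries, *Hnrnpul2* (-0.86 ± 0.56), lower in 10 of 12 mice, *Hnrnpa3* (-0.85 ± 0.48), lower in 9 of 12, *Hnrnpu* (-0.77 ± 0.46), coding for a nuclear scaffold hnRNP, lower in 7 of 12, and *Hnrnph3* (-0.53 ± 1.31).

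The SF3 genes, with a median log2 fold change of -0.28 and 6 of 8 genes below 0, had 0 genes at an unadjusted p under 0.05. *Sf3b1* was at 120, 384 and 790 normalized CPM in dVenus+ and 116, 224 and 484 in dVenus- libraries, higher in 9 of 12 mice (0.67 ± 0.34). *Sf3b5*, coding for a small SF3B subunit, was the lower in 9 of 12 mice (-1.22 ± 0.87). The values of *Sf3b4* (0.79 ± 1.04), *Sf3a1* (-0.67 ± 1.03) and *Sf3b3* (-0.43 ± 0.71) were smaller than their errors, and leaving out 1 mouse at a time moved *Sf3a1* between -1.11 and -0.26 and *Sf3b3* between -0.63 and -0.14.

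Mice differed in the direction of the families as a whole. The median over the 47 genes of the within-mouse difference in log2 normalized CPM (with 1 added) ran from -1.68 in FC mouse 5 to 1.02 in FC mouse 12. The dVenus+ library of mouse 5 had the fewest of the 48 genes detected (39), 7860 genes detected in all beside a median of 10388 over the libraries and a TMM factor of 0.308, and the median difference over all genes was also low in this mouse (-0.58), and the part of these values in the result was not tested. The prefixes of the sample IDs put the FC libraries in 3 sets, of mice 1 and 3, mice 4 to 7 and mice 9 to 14. Both mice of the first set had a median above 0 (0.25 and 0.57), the 4 mice of the second lay between -1.68 and 0.03, and the 6 mice of the third lay between -0.54 and 1.02. Over all genes tested, the medians ran from -0.24 to -0.15, from -0.58 to 0.0059 and from -0.92 to 0.13 in these sets. In mouse 14 the families were at 0.94 and all genes at -0.92, with a TMM factor of 0.394 in its dVenus+ library. The part of this scaling in the result was not tested. Fitted within a set, the median over the genes was -1.19 for mice 4 to 7 and 0.25 for mice 9 to 14, with 0 genes called in either, and mice 1 and 3 were not fitted alone. Without mouse 5 the median log2 fold change in FC mice moved from -0.14 to -0.05, but this was not particular to mouse 5. It was -0.014 without mouse 6 and -0.014 without mouse 14, and it ran from -0.16 to -0.014 with each of the 12 mice left out in turn. No gene had the same direction in all 12 mice, beside 1.52% of all genes tested, and no gene had dVenus+ and dVenus- ranges that did not overlap, beside 0.134%.

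**Figure D3:**
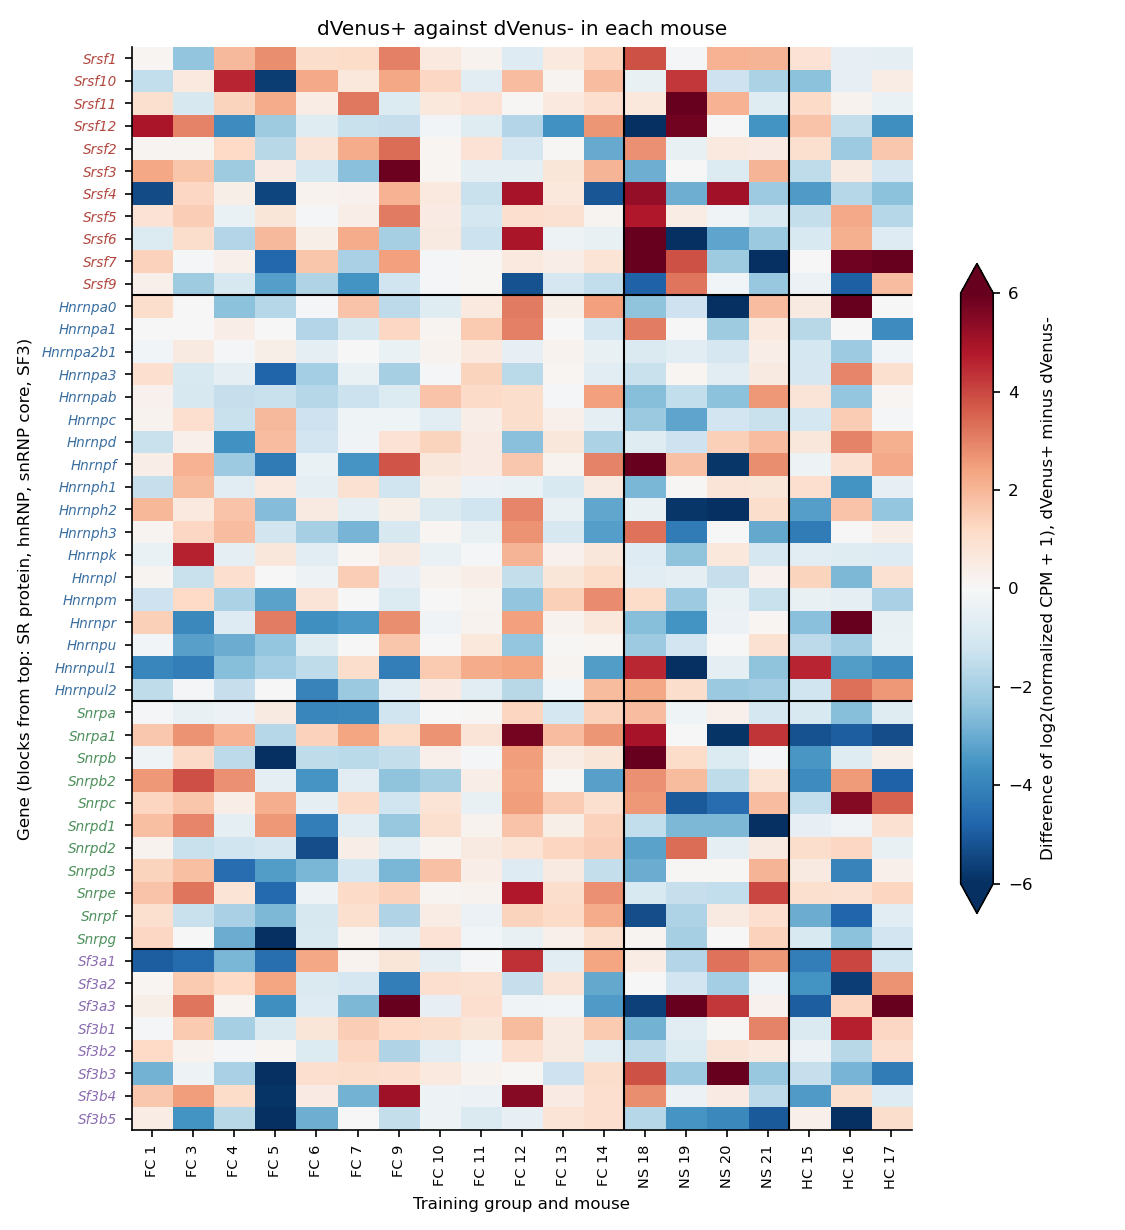
Difference of log2(normalized CPM + 1) within each mouse, dVenus+ minus dVenus- cells, for 48 genes (rows, by family) and 19 mice (columns, by training group), in red where dVenus+ was higher and in blue where it was lower. The row of *Snrpa1* is red in 11 of 12 FC columns and blue in all 3 HC columns, and few other rows hold 1 color.

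The balance between the SR protein and hnRNP families differed in a direction that most mice shared. The ratio of summed SR protein counts to summed hnRNP counts within a library, in which library scaling cancels, was higher in dVenus+ than in dVenus- cells in 10 of 12 FC, 3 of 4 NS and 3 of 3 HC mice. In FC mice it was 0.375 at the lowest, 0.626 at the median and 0.968 at the highest in dVenus+ and 0.288, 0.430 and 1.05 in dVenus- libraries, a mean within-mouse log2 difference of 0.47 ± 0.56 (SD, 12 mice), with mice 3 and 11 in the opposite direction. In NS mice 18, 19, 20 and 21 it was 0.686, 0.612, 0.469 and 0.387 in dVenus+ and 0.284, 0.245, 0.218 and 0.480 in dVenus- libraries, with only mouse 21 in the opposite direction. In HC mice 15, 16 and 17 it was 0.402, 0.648 and 0.283 in dVenus+ and 0.253, 0.358 and 0.220 in dVenus- libraries.

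The ranges of the ratio overlapped between dVenus+ and dVenus- libraries in every training group. Without *Hnrnpa2b1*, the most abundant hnRNP, the ratio was again higher in dVenus+ cells in 10 of 12 FC, 3 of 4 NS and 3 of 3 HC mice. Its mean within-mouse log2 difference was then 0.49 beside 0.47 in FC and 0.848 beside 0.846 in NS mice. In HC mice it fell from 0.63 to 0.32. Within the sets given by sample ID, it was higher in 1 of 2 (mice 1 and 3), 4 of 4 (mice 4 to 7) and 5 of 6 FC mice (mice 9 to 14) and in 6 of 7 mice of the set that holds all NS and HC mice. Among the 6 ratios between pairs of families, SF3 to hnRNP was higher in 10 of 12 FC, 3 of 4 NS and 2 of 3 HC mice and snRNP to hnRNP in 7, 3 and 2. SR protein to SF3 was higher in 5, 2 and 1, SR protein to snRNP in 5, 3 and 3, and snRNP to SF3 in 8, 1 and 1. No test was made of these ratios, which were chosen after values had been seen, and granule cell markers were lower in dVenus+ cells in the same mice (values above), whose part in the ratio was not tested.

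**Figure D4:**
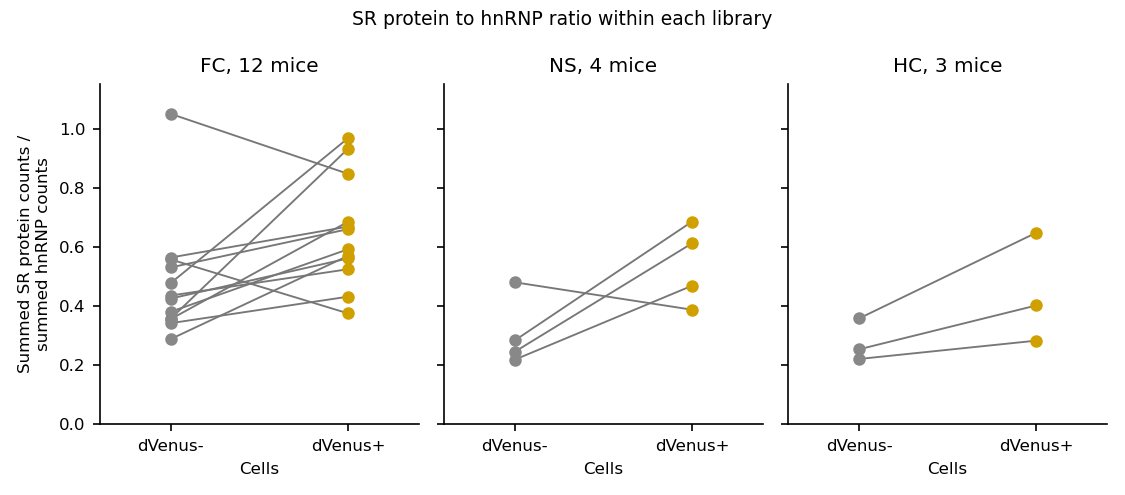
Ratio of summed SR protein counts to summed hnRNP counts in each library, with lines joining the libraries of 1 mouse from dVenus- to dVenus+, in FC (12 mice), NS (4) and HC (3). Lines go up in 16 of 19 mice and the 2 kinds of library overlap in each panel.

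The sums of the families themselves depended on how libraries were scaled. With TMM factors, which ran from 0.295 to 1.92, the summed level of all 48 genes was higher in dVenus+ cells in 9 of 12 FC, 1 of 4 NS and 2 of 3 HC mice, and without them in 5, 0 and 0. The hnRNP sum was lower in dVenus+ cells of 3 of 3 HC mice under both scalings, at 1938, 2358 and 2827 normalized CPM (lowest, median, highest) against 2817, 3206 and 3245. This was not particular to hnRNPs, since the snRNP sum was likewise higher in 0 of 3 HC mice under both scalings. Without TMM factors the SR protein sum was also higher in 0 of 3 HC mice. The SR protein sum was higher in 4 of 4 NS mice with TMM factors and in 1 of 4 without, so that its direction flips with the scaling.

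In NS mice, which had explored the chamber without shocks, no gene was called, and most hnRNP genes had a log2 fold change below 0. It was below 0 for 14 of 16 hnRNP genes, 1 of them with an unadjusted p under 0.05, with a median of -0.78 beside 0.20 over all genes, whereas SR protein genes had 6 of 10 above 0 and a median of 0.64. The summed hnRNP level was lower in dVenus+ cells of mice 18, 19 and 20 but higher in mouse 21 (3220 against 2333 normalized CPM), where 26 of 45 genes of the families were higher. No gene of 45 tested was called with edgeR (0% of 8187 genes), and 2 had an unadjusted p under 0.05 (beside 4.69%). DESeq2 called 1, *Sf3b5*, beside 8.13%, and the newer method of edgeR 0, beside 0.0489%.

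*Hnrnpc* was the clearest of them. In mice 18, 19, 20 and 21 it was at 99.5, 51.3, 107 and 156 normalized CPM in dVenus+ and 462, 475, 238 and 390 in dVenus- libraries, so that every dVenus+ library lay below every dVenus- library. Its log2 fold change was -2.07 ± 0.79, with an unadjusted p of 0.017 and an adjusted p of 0.991 in edgeR (0.133 to 1 over the alternatives). *Snrpd1*, coding for an Sm ring protein, was at 58.4, 22.9, 50.6 and 0 in dVenus+ and 162, 154, 329 and 105 in dVenus- libraries, again without overlap, with -3.40 ± 1.45 and an unadjusted p of 0.030. Genes whose ranges did not overlap were 2 of 45, beside 6% of all genes, and 3 of 45 were lower in all 4 mice (*Hnrnpc*, *Snrpd1* and *Sf3b5*) and 0 higher, beside 17% of all genes for both directions together.

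*Sf3b5* was at 45.0, 0.585, 1.08 and 0 normalized CPM in NS dVenus+ and 152, 17.5, 29.0 and 32.0 in dVenus- libraries of the same mice (-4.95 ± 2.52). Mouse 18 was the highest in both. *Hnrnph2*, a paralogue of *Hnrnph1*, was at 134, 2.05, 0.649 and 288 against 183, 172, 177 and 138 (-3.39 ± 2.00), lower in mice 18, 19 and 20 and higher in mouse 21, and its log2 fold change was -1.34 without mouse 19, -1.38 without mouse 20, -5.46 without mouse 18 and -5.58 without mouse 21. *Hnrnpk* was at 459, 58.3, 544 and 173 against 796, 313, 348 and 351 (-1.0 ± 0.72), with mouse 20 in the opposite direction, and was at -0.46 without mouse 19 and -1.57 without mouse 20.

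In HC mice, without training, most genes of the families had lower values in dVenus+ cells. The log2 fold change was below 0 for 31 of 45 genes, with a median of -0.94 beside 0.11 over all genes, and this median moved to -0.23 without mouse 16, to -0.49 without mouse 15 and to -0.51 over the 28 genes with at least 10 counts in every library. With edgeR 0 of 45 genes were called (beside 0.0264% of 7588 genes) and 2 had an unadjusted p under 0.05 (beside 3.91%), while DESeq2 called 3, *Snrpa1*, *Srsf7* and *Sf3a2*, beside 8.24%, and the newer method of edgeR 0, beside 0%. Of the 45 genes, 10 were lower in all 3 mice and 3 higher (*Hnrnpa0*, *Hnrnpd* and *Snrpe*), beside 29.7% of all genes for both directions together, and 3 (*Snrpa1*, *Sf3b3* and *Srsf4*) did not overlap, beside 15.1%.

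*Snrpa1* was at or near 0 in the 3 HC dVenus+ libraries. In NS mice, of the same set of sample IDs, it was at 0 in 2 of 4 dVenus+ and 2 of 4 dVenus- libraries. In HC mice 15, 16 and 17 it was at 0, 2.89 and 0 normalized CPM in dVenus+ libraries (0, 6 and 0 counts) and 36.2, 119 and 39.1 in dVenus- libraries (491, 578 and 397 counts), a fitted log2 fold change, which depends on the prior count, of -8.59 ± 3.76 with an unadjusted p of 0.032 and an adjusted p of 0.984 in edgeR (0.00108 to 1 over the alternatives). Each HC dVenus- library was above the highest FC dVenus- library (32.9), while each HC dVenus+ library was below the lowest FC dVenus+ library (6.16), across sets of sample IDs that do not overlap between FC and HC mice. *Srsf7*, coding for an SR protein with a zinc knuckle, was at 194, 400 and 254 in HC dVenus+ and 196, 5.99 and 0 in dVenus- libraries, higher in mice 16 and 17 only (5.83 ± 2.65, unadjusted p 0.038), and its log2 fold change was 2.73 without mouse 17 and 8.86 without mouse 15.

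*Hnrnpa2b1* was at 523, 309 and 442 in HC dVenus+ and 1100, 1387 and 492 in dVenus- libraries (-1.32 ± 0.82), and *Hnrnpu* at 66.0, 97.2 and 232 against 198, 414 and 306 (-1.55 ± 1.16). Both were lower in dVenus+ cells of 3 of 3 mice, and their ranges overlapped, each through 1 mouse. *Snrpf*, an Sm ring gene with most of its windows shared with other genes, was at 0, 0 and 10.8 against 6.78, 26.0 and 17.4 (-5.92 ± 4.24), or -3.70 without mouse 16 and -9.38 without mouse 17. Without mouse 16 *Hnrnpa2b1* was at -0.81.

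Whether the dVenus difference varied with training was tested in 1 fit of all 38 libraries, and no gene of the families was called with edgeR. All 48 genes entered, and 0 were called between FC and NS (beside 0% of 14075 genes), 0 between FC and HC (0%) and 0 between NS and HC (0.0071%). An unadjusted p under 0.05 was reached by 2, 1 and 2 genes, beside 5.42%, 6.34% and 4.89% of all genes. DESeq2 called 4, 6 and 3 genes, beside 9.05%, 11.9% and 10.4%. FC libraries belong to other sets of sample IDs than NS and HC libraries, so that training and set cannot be told apart in the first 2 of these tests.

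*Snrpa1* had the lowest p of the 48 genes for the differences of FC and of NS from HC mice. Its dVenus difference was 10.26 ± 2.85 log2 units higher in FC than in HC mice (unadjusted p 0.0013, adjusted p 0.752 in edgeR and 7.39e-07 in DESeq2) and 11.86 ± 4.76 higher in NS than in HC mice (unadjusted p 0.020, adjusted p 0.992 in edgeR and 1.41e-06 in DESeq2), values that depend on counts at or near 0 in the HC dVenus+ libraries. In NS mice *Snrpa1* was at 29.7, 0, 0 and 316 in dVenus+ and 0, 0, 58.1 and 15.5 in dVenus- libraries, with no shared direction (3.54 ± 3.82). *Hnrnpc* differed by 2.03 ± 0.72 between FC and NS (unadjusted p 0.0091, adjusted p 0.876 in edgeR and 0.00422 in DESeq2) and by -2.13 ± 0.97 between NS and HC mice, and *Snrpd1* by 3.80 ± 1.50 between FC and NS (unadjusted p 0.018, adjusted p 0.876 in edgeR and 0.00541 in DESeq2).

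**Figure D5:**
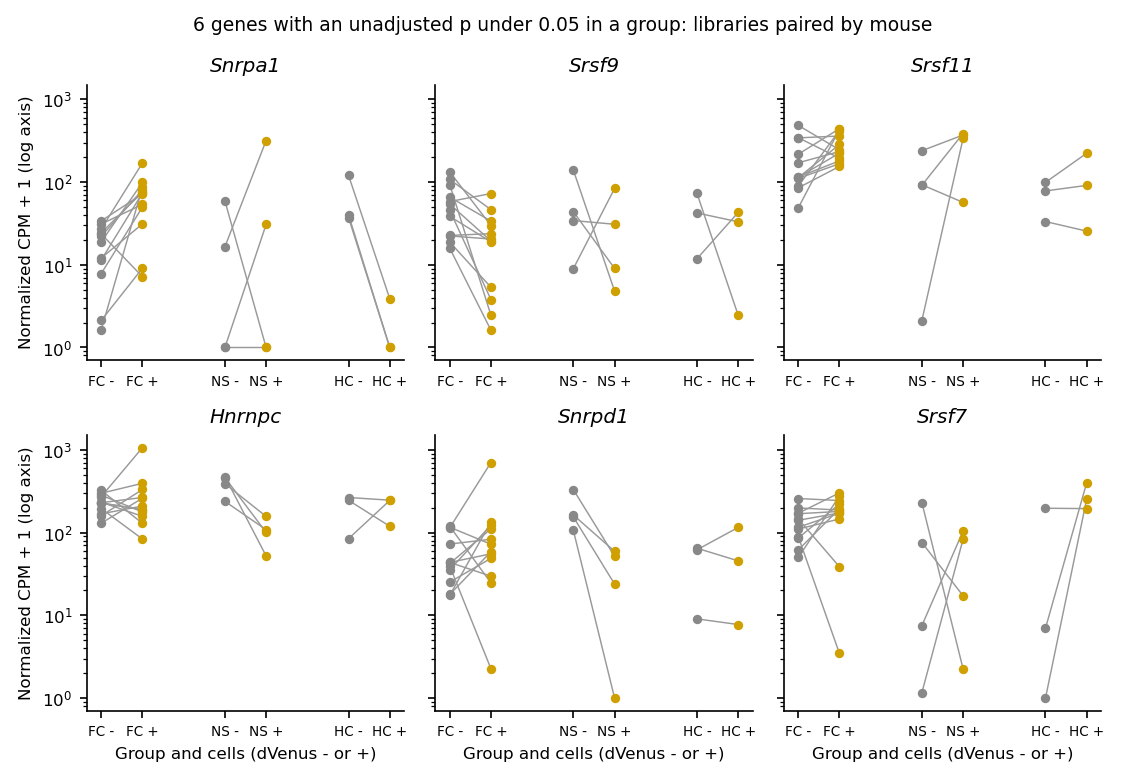
Normalized CPM plus 1 on a log axis for 6 genes with an unadjusted p under 0.05 in a training group, with lines joining the libraries of 1 mouse from dVenus- to dVenus+. Lines of *Snrpa1* go up in 11 of 12 FC mice and down in 3 of 3 HC mice, and lines of *Hnrnpc* and *Snrpd1* go down in 4 of 4 NS mice.

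The rest of the splicing machinery was read from 3 further lists. Among splicing regulators such as the RBFOX, NOVA, PTBP, ELAVL and CELF proteins, 37 of 40 were tested in FC mice and 1 was called with edgeR, *Rbfox3*, the neuronal regulator known as NeuN, beside 1.41% of all genes. It was at 10.1, 88.8 and 169 normalized CPM (lowest, median, highest) in dVenus+ and 116, 249 and 593 in dVenus- libraries, lower in 12 of 12 mice, with a log2 fold change of -1.96 ± 0.44 and an adjusted p of 0.0302. The list's median was -0.25, beside -0.21 over all genes, with 4 genes at an unadjusted p under 0.05, each of them lower, beside 12.8% of all genes. Its largest other differences were those of *Khdrbs2* (-2.66 ± 1.52) and *Elavl4* (2.15 ± 1.50), neither called.

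Of 45 tested spliceosome genes outside the 4 families, 0 were called in FC mice and 4 had an unadjusted p under 0.05, 3 of them higher, beside 1.41% and 12.8% of all genes. *Snrnp48*, coding for a protein of the minor spliceosome, was higher in 11 of 12 mice (2.77 ± 0.83, adjusted p 0.109 in edgeR), and *Isy1* (-3.72 ± 1.84) and *Snrnp25* (-2.71 ± 1.55), also of the minor spliceosome, were not called. Of the kinases that phosphorylate SR proteins, 6 were tested, 0 were called and 0 had an unadjusted p under 0.05, with *Clk2* at -1.23 ± 1.03, *Srpk1* at 0.65 ± 1.47 and *Clk4* at -0.36 ± 0.74. None of these 3 lists held a called gene in the other training groups (0 for NS, 0 for HC), and the genes with an unadjusted p under 0.05 numbered 2 for NS and 1 for HC mice, beside 4.69% and 3.91% of all genes.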

How the data were processed

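Pools of 10 cells per library were sequenced as single 50-base reads and, per the labels and the study's methods, aligned to mm10 (GRCm38) with TopHat2 2.0.13 and counted with HTSeq 0.6.0, so that the deposited values are raw counts of uniquely aligned reads per gene. Reads of near-identical gene copies are therefore missing from the counts. Reads outside genes made up 16.4 to 59.7% of the reads that were counted on a gene, outside genes or as ambiguous between genes. All rows that name no gene were left out. Normalized CPM were computed with TMM factors from edgeR 4.0.16 (R 4.3.3). Genes that reached 10 counts in 12 (FC), 4 (NS) or 3 (HC) libraries or more were tested with edgeR's quasi-likelihood test in its default form, with the mouse as block since both libraries come from 1 animal, and p-values were adjusted over all genes tested by the Benjamini-Hochberg method. A gene was called at an adjusted p under 0.05 and an absolute log2 fold change over 1. The standard errors given after ± for edgeR fold changes are not an output of the test. They were derived as the absolute log2 fold change divided by the square root of the F statistic. They are approximate, above all where counts were at or near 0. Differences between training groups were tested in 1 fit of 38 libraries. Alternatives were DESeq2 1.42.0, other filters and scalings, no block, single sets of mice and leaving out mice. The block was checked by the correlation of paired libraries around their group means, which had a median of 0.0475 in FC (over 0.1 in 2 of 12 pairs), -0.0152 in NS (1 of 4) and 0.00724 in HC mice (0 of 3). Counts were also simulated without differences between mice, with changes placed in genes drawn from all those tested. In counts simulated for FC mice over 9503 genes, 7.61% of genes changed by 2 log2 units and 55.8% of those changed by 4 were called. For NS mice these shares were 1.18% and 11.9% (over 7598 genes), and none of either size was called for HC mice (0% over 7004 genes). The absence of called genes in NS and HC mice therefore says little about changes of these sizes, and in FC mice little about changes of 2 log2 units. Genes of the 4 families had smaller median standard errors than all genes tested, so these shares may differ for them. The medians were 0.64 beside 1.02 in FC, 1.58 beside 2.47 in NS and 2.23 beside 3.07 in HC mice.

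Gene positions and transcript lengths came from GENCODE (GRCm38). The genes and lists were chosen with earlier results of these data known. Named genes were those called, the 5 per family with the largest absolute FC fold change, the 5 with the lowest p in NS and HC mice, the 3 per family with the highest level per kilobase, those below the filter throughout, and, in the other lists, those called and the 3 with the largest FC fold change. *Srsf5*, *Hnrnpk*, *Hnrnpc* and *Hnrnpa2b1* in FC, *Snrpg* and the family ratios were added after their values were seen.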

Additional observations from a re-analysis of the deposited data

Results flagged for a closer look

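Values of the genes named for NS mice, the family sums and the SR protein to hnRNP ratio made 22 groups of 4 libraries. Of these, 3 held a library far from the others by Dixon's test. Chance gives this in about 1 in 20 groups of independent, normally distributed values, whereas these groups share mice and the genes were picked by low p. All 3 were groups of single genes, and the library was in each case from NS mouse 18. *Sf3b5* was at 45.0 normalized CPM in its dVenus+ library, against at most 1.08 in the other dVenus+ libraries, and at 152 in its dVenus- library, against at most 32.0. *Hnrnpk* was at 796 in its dVenus- library, against at most 351.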

How the results depend on the processing

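With DESeq2, the genes called were 2 for FC (*Snrpa1* and *Srsf9*), 1 for NS (*Sf3b5*) and 3 for HC mice (*Snrpa1*, *Srsf7* and *Sf3a2*), and 4, 6 and 3 for the differences between FC and NS, FC and HC, and NS and HC mice, where edgeR called 0. The newer quasi-likelihood method of edgeR, added after seeing the data, called 1 in FC mice (*Snrpa1*). The cause of these differences was not tested. The median log2 fold change was -1.19 in FC mice 4 to 7 alone, and in HC mice -0.51 with at least 10 counts in every library, where fewer genes are tested. Leaving out 1 mouse at a time, it ran from -0.16 to -0.01 (FC mice), from -0.67 to -0.32 (NS mice) and from -0.78 to -0.23 in HC mice (-0.49 without mouse 15 and -0.23 without mouse 16), with 0 genes called throughout.

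Without the block for the mouse, 0 genes were called in each group and the median was 0.15 for FC, -0.53 for NS and -0.50 for HC mice, so that it changed sign in FC mice. That fit reversed *Sf3a1* (0.13), *Sf3b3* (0.075) and *Srsf12* (0.79) in FC mice. Mice 4 to 7 alone reversed *Sf3b1* (-0.29), *Sf3b4* (-1.97) and *Snrpe* (-0.51), and mice 9 to 14 alone reversed *Hnrnpu* (0.019), *Hnrnpul1* (0.24), *Sf3a1* (0.87), *Sf3b3* (0.27) and *Snrpa* (0.029). Without mice 3 and 5, *Sf3a1* was at 0.12. The cause was not tested. Of 522 values of single genes under all alternatives, 500 kept direction and side of the threshold, 10 passed it and 12 reversed. The main fits called none of these genes, so keeping the side means staying uncalled. The genes were picked by fold change or p in the same fits, and 275 of the 522 values came from leaving out 1 mouse. The counts therefore describe overlapping fits and are no measure of stability. Depth and 10-cell pools limit what can be seen, and 23 of the 48 genes were at 0 in at least 1 library.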
